A study of Mus musculus with 38 samples.

Results

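The 7 genes described here encode C-type lectin receptors of myeloid cells: Clec4a1, Clec4a2, Clec4a3, Clec4d, Clec4e, Clec4n and Clec7a. They were chosen by name, with earlier results of these data known, out of 19937 genes with a symbol on the array. Each was read by 1 probe set. The study sorted CD11b+ myeloid cells from female wild-type C57BL/6 mice aged 6 weeks and measured their RNA on 38 Affymetrix Mouse Gene 1.0 ST arrays, in 13 populations. Each population had 3 arrays from independent pools of mice, except DNFB-treated P1 cells, which had 2. Inflammation was induced with 10 µl of 0.5% DNFB (dinitrofluorobenzene, a skin-sensitising hapten) in acetone and olive oil, and tissue was taken 3 days later, while steady-state mice were untreated.

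The lymph node groups came from cutaneous nodes and were both gated as CD11c+ and MHCIIhi within CD11b+ CD24- cells. Node CD64+ cells, which were also Ly6C+, were sorted after DNFB only, and their labels call them non-DC in the title, a dermal monocyte in the cell type field and a DC in the description. Node migratory DC, CD64- and Ly6C-, were sorted after DNFB and at steady state. The dermal groups were all CD11b+ and CD24-. P5 and P4 are macrophages, CD64+ without Ly6C or CCR2, with MHCII on P5 and not on P4, both at steady state. Dermal DC were MHCII+ and lacked CD64 and Ly6C, and were sorted after DNFB and at steady state. P3 (CD64+, Ly6Clow, CCR2+, MHCII+, steady state), P2 (CD64+, Ly6Chigh, CCR2+, MHCII+, after DNFB and at steady state) and P1 (CD64low, Ly6Chigh, CCR2+ but MHCII-, after DNFB and at steady state) are labelled monocytes. Blood monocytes were sorted as CD11b+ Ly6Chigh at steady state. No vehicle-painted group was used, dermis was digested with dispase and collagenase 4, and node with collagenase 2, so tissue and digestion cannot be told apart.

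C-type lectin receptors recognise sugars and lipids of fungi, mycobacteria and damaged cells. Clec7a (Dectin-1), the receptor for fungal beta-glucans, signals through a tyrosine motif in its own tail. Clec4n (Dectin-2), which binds fungal mannans, and Clec4e (Mincle), which binds mycobacterial cord factor, signal through the Fc receptor gamma chain Fcer1g, and Clec4d (MCL) associates with Clec4e. These activating receptors recruit the kinase Syk and, through Card9, Bcl10 and Malt1, turn on NF-kB and cytokine genes. Clec4a2 (Dcir1) carries an inhibitory motif that recruits the phosphatases Ptpn6 and Ptpn11, and Clec4a1 (Dcir4) and Clec4a3 (Dcir3) are its close relatives.

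The 6 Clec4 genes form a cluster on mouse chromosome 6 at chr6:122921848-123289871 (GRCm38.p6, RefSeq), a stretch of 368.0 kb. In the order of the chromosome they are Clec4a1 (chr6:122921848-122934619), Clec4a3 (chr6:122952515-122969878), Clec4a2 (chr6:123122690-123143999), Clec4n (chr6:123229843-123247024), Clec4d (chr6:123262107-123275268) and Clec4e (chr6:123281789-123289871, on the minus strand). Clec4d and Clec4e are neighbours, 6.52 kb apart with 0 protein-coding genes between them. Clec7a lies outside the cluster at chr6:129461591-129472785 on the minus strand, with 106 protein-coding genes between it and Clec4e. The promoter windows of Clec4d and Clec4e are shown because the levels of these neighbours varied together across the populations. Each window is RefSeq sequence of GRCm38.p6, 250 bases before to 50 after the gene's start, written on the gene's own strand, at chr6:123261857-123262156 (plus) for Clec4d and chr6:123289822-123290121 (minus) for Clec4e. Capitals mark the motifs found.
Clec4d: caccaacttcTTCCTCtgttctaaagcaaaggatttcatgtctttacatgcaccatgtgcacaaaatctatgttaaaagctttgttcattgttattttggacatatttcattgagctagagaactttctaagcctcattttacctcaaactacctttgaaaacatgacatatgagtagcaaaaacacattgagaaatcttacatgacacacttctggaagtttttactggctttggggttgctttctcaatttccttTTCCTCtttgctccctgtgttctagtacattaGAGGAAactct
Clec4e: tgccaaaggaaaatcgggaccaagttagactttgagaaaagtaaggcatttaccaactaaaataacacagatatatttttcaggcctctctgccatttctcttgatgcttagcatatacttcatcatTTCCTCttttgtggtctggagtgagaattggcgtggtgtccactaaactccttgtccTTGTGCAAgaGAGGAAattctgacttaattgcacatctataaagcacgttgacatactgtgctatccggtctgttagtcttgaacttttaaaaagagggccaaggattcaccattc

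Motifs of 5 factors were searched on both strands, and a match describes the letters only. The PU.1 core GAGGAA reads as TTCCTC when the match is on the other strand. It occurred at -240, +7 and +39 relative to the Clec4d start and at -123 and -56 at Clec4e. The same core was also in the windows of Clec4a1, Clec4a3 and Clec7a, but not in that of Clec4a2. Of 32851 windows of this length, 28.3% held it. A C/EBP motif, TTGCNNAA, lay at -66 of Clec4e and in 10.8% of windows, and there it reads TTGTGCAA because the match is on the other strand. The other motifs were TGANTCA (AP-1, in 7.81% of windows), those of NF-kB (20.7%) and STAT6 (6.95%), and none of them matched in the Clec4d or Clec4e window. Of the 7 genes, 6 had a window in the table used. Among the 15 pairs of these genes, the longest shared run was 17 bases, CCTGGTTCCTCTTTTTC, at -222 of Clec4a1 and -55 of Clec4a3, while other pairs shared runs of 7 to 10 bases.

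Values are log2 intensities after robust multi-array average normalisation, as deposited. Array medians lay between 4.39 and 4.65, and arrays of a population correlated at 0.931 to 0.986. No detection calls were used, so a level of 4.02, the 40th percentile of all values on the arrays, served as a mark under which a value was read as low, and differences against levels near it have no exact size. Levels of different genes were not compared, since probe sets differ in brightness, and probes of related Clec4 genes may share signal, which was not tested without probe sequences. Some sort markers read against their gates. Itgam, which encodes CD11b, read 4.74 in DNFB node DC and 4.62 in steady-state node DC, although both are labelled CD11b+, against 8.65 in node CD64+ cells and 9.52 to 10.81 in all other populations. Ccr2 read 9.15 in P5 and 8.14 in P4, both labelled CCR2-, against 10.47 in steady-state P2 and 10.67 in P3. In bulk sorted samples, fewer cells of a type and less RNA per cell cannot be told apart.

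All 7 genes varied widely. The span between the highest and the lowest population mean was 3.86 on the log2 scale for Clec7a, 5.56 for Clec4a2, 5.87 for Clec4n, 6.14 for Clec4a3, 6.65 for Clec4d, 6.78 for Clec4a1 and 7.27 for Clec4e, against a median of 0.70 over all genes. A span of 3.86 or more was reached by 3.31% of genes. In all 7, the lowest level was that of node DC.

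Clec4a1 and Clec4a3 varied far less among the populations outside node DC than between these and node DC. Clec4a1 averaged 11.54 ± 0.15 in blood monocytes (SD, n = 3, as for all groups but DNFB P1), and the other populations of blood, dermis and node CD64+ cells followed down to 10.57 ± 0.22 in steady-state dermal DC, each overlapping its neighbour in the order. DNFB node DC were at 6.13 ± 1.03 and steady-state node DC at 4.77 ± 0.93, and both lay below every other array. Clec4a3 was highest in blood monocytes at 10.97 ± 0.11, which did not overlap the next population, DNFB P2 at 10.56 ± 0.21. From P3 (10.20 ± 0.12) down to steady-state dermal DC (9.76 ± 0.11), its neighbouring populations overlapped, and DNFB node DC (5.43 ± 0.83) and steady-state node DC (4.83 ± 0.47) again stood apart.

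Clec4a2 was highest in P3, with 9.67, 9.67 and 9.71 on the 3 arrays. DNFB P2 cells (9.61 ± 0.37), steady-state P2 cells (9.49 ± 0.32) and steady-state dermal DC (9.41 ± 0.26) overlapped it or their neighbour. Blood monocytes, at 8.33 ± 0.10, and node CD64+ cells, at 7.65 ± 0.57, were the lowest populations outside node DC, which averaged 4.12 ± 0.41 after DNFB and 4.38 ± 0.19 at steady state.

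Clec4d and Clec4e were both highest in the dermal monocyte populations. For Clec4d the order ran from 10.23 ± 0.15 in DNFB P1 (n = 2) through 9.68 ± 0.54 in DNFB P2, 9.18 ± 0.35 in steady-state P1, 8.97 ± 0.15 in P3 and 8.83 ± 0.23 in steady-state P2 to 8.59 ± 0.32 in P4 and 8.51 ± 0.48 in P5, with overlap at each step. A gap without overlap followed, and steady-state dermal DC (6.94 ± 0.17), DNFB dermal DC (6.89 ± 0.25) and blood monocytes (6.33 ± 0.54) formed a middle range. For Clec4e, the P1, P2 and P3 populations lay between 10.76 ± 0.04 (P3) and 11.19 ± 0.12 (DNFB P1). Dermal DC, P5, P4 and blood monocytes lay between 8.11 ± 0.19 (blood) and 9.70 ± 0.28 (steady-state dermal DC), and the 2 ranges did not overlap. Node CD64+ cells read 4.10 ± 0.27 for Clec4d, near the low mark, and 5.30 ± 0.70 for Clec4e.

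Clec4n had a different order. It was highest in DNFB dermal DC (9.76 ± 0.29) and DNFB P2 (9.62 ± 0.38), which overlapped each other but not the next population. DNFB P1 (8.75 ± 0.02, n = 2), node CD64+ cells (8.71 ± 0.70), P4 (8.16 ± 0.23), steady-state P2 (8.02 ± 0.66) and P5 (7.31 ± 1.19) followed, and steady-state dermal DC were at 6.55 ± 0.66. The highest node CD64+ array, at 9.51, lay within the range of DNFB P2. Blood monocytes, at 4.77 ± 0.17, were lower than any dermal array. In P5 replicate 3, at 5.94, lay far below replicates 1 and 2, at 8.0 and 7.98.

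Clec7a was highest in steady-state dermal DC, at 9.10 ± 0.09. The P1, P2 and P3 populations, DNFB dermal DC and blood monocytes lay between 8.48 ± 0.12 (P3) and 9.0 ± 0.17 (DNFB dermal DC), with overlap at each step. P5 (7.67 ± 0.67) and node CD64+ cells (7.31 ± 0.16) were lower, P4 was at 6.34 ± 0.49, and DNFB node DC (5.37 ± 0.29) and steady-state node DC (5.24 ± 0.49) had the lowest levels.

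**Figure D1:**
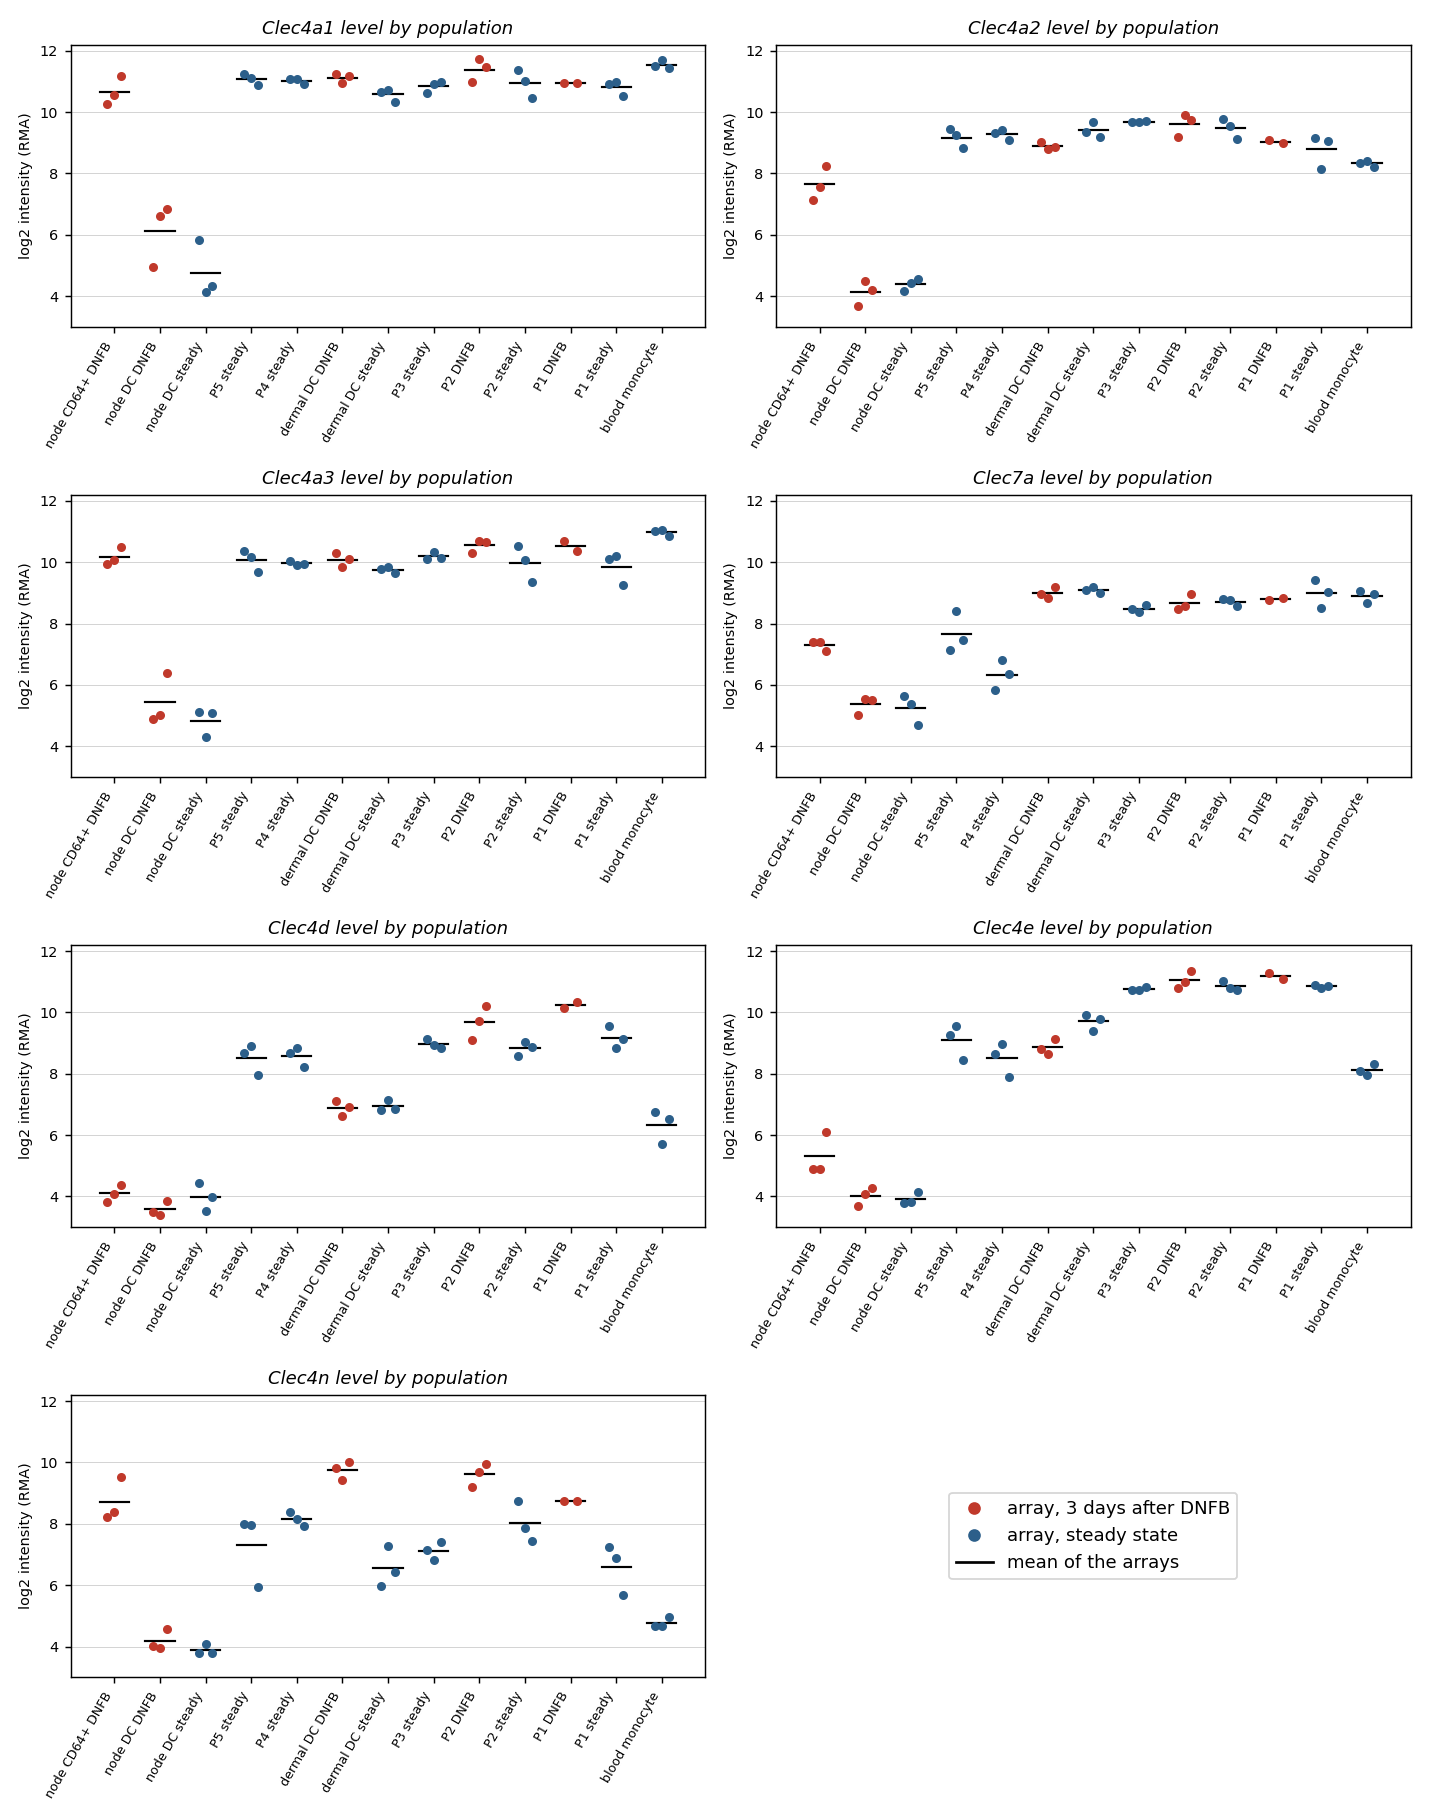
Log2 intensity of each of the 7 genes (vertical axis) in the 13 populations (horizontal axis), with 1 point per array and a line at each mean. Red points are arrays 3 days after DNFB and blue points are steady state. Node DC are lowest in all 7 panels, Clec4d and Clec4e are also low in node CD64+ cells, and Clec4n is highest in dermal DC and P2 cells after DNFB.

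The first comparison set dermal P1 monocytes against blood monocytes, the Ly6Chigh cells of both tissues. Clec4d, Clec4e and Clec4n were higher in P1 and Clec4a3 was lower, 4 of the 7 genes, where 12.6% of all genes passed the test (limma's moderated test, Benjamini-Hochberg adjusted p under 0.05 over all genes). Clec4d read 9.54, 8.85 and 9.14 on the P1 arrays and 6.74, 5.72 and 6.54 on the blood arrays. The groups did not overlap, and the difference was 2.84 ± 0.28 on the log2 scale (SE), 7.18-fold, with an adjusted p of 1.6e-08. Clec4e read 10.89, 10.78 and 10.87 in P1 and 8.08, 7.95 and 8.31 in blood, again without overlap. It was 2.73 ± 0.28 higher on the log2 scale, 6.65-fold, with an adjusted p of 3e-08.

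Clec4n read 7.24, 6.90 and 5.68 in P1 and 4.68, 4.67 and 4.97 in blood. Each P1 array lay above each blood array, and the log2 difference was 1.83 ± 0.44, 3.55-fold, with an adjusted p of 0.0048. Clec4a3, at 10.10, 10.20 and 9.27 in P1 and 11.03, 11.04 and 10.84 in blood, was lower by a log2 difference of -1.12 ± 0.30 (adjusted p = 0.013). That call was lost without P1 replicate 3 (adjusted p = 0.12) and in a fit of the 2 groups alone (0.052). The beta-glucan receptor Clec7a differed by 0.10, with a 95% interval of -0.45 to 0.64.

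Lists of genes were also read for the pathway, and 1 of them holds genes that receptor engagement can induce, called outputs here. Whether these receptors or other signals drove the outputs was not tested in any comparison. Of the outputs, 11 of 18 were higher in P1 than in blood and 2 lower. Their median log2 difference was 1.17 against 0.01 for all genes. Il6 was 5.47 higher on the log2 scale, Il10 4.45, Il1b 3.08 and the neutrophil chemokine Cxcl1 2.98. The adaptors and kinases next to the receptors were mixed, with 2 of 14 higher and 5 lower, among them Fyn at 1.62 and Btk at -1.90. That list also holds genes of neither kind, such as Vav1 and Plcg2. Of the CARD9 branch, 2 of 13 were higher and 2 lower, with Malt1 at 1.37 and Card9 at -1.29. Of the effectors of inhibitory motifs and other phosphatases, 0 of 10 were higher and 2 lower, with Ptpn6 at -1.46. The lists of 2 other cell types moved with this comparison: the keratinocyte markers averaged 7.26 (arrays 6.69 to 7.62) in P1 and 4.40 (4.32 to 4.50) in blood, with 9 of 12 higher, and the fibroblast markers 8.26 (6.75 to 10.46) and 4.46 (4.35 to 4.51), with 11 of 12 higher. Their part in the result was not tested. The neutrophil markers averaged 4.51 in P1 and 4.69 in blood, with 0 of 12 higher and 1 lower.

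Within the dermal monocyte populations at steady state, 0 of the 7 genes passed the test. Between P2 and P1, 2.09% of all genes did, and the closest member was Clec4n, with a log2 difference of 1.41 (adjusted p = 0.11). Between P3 and P2, 0.371% did, and the widest member difference was again Clec4n, at -0.89 (adjusted p = 0.57). Clec4e differed by 0.01 between P2 and P1, with a 95% interval of -0.56 to 0.57. Other C-type lectins moved between P2 and P1 where the 7 were not called: 6 of 19 were higher in P2 and 0 lower, among them Mgl2 (CD301b), by 6.18 on the log2 scale, and Cd209a (DC-SIGN), by 3.57. In the same comparison the DC markers averaged 7.47 (7.39 to 7.60) in P2 and 6.27 (6.21 to 6.32) in P1, with 5 of 8 higher, the macrophage markers 8.78 (8.09 to 9.62) and 7.03 (6.97 to 7.11), with 4 of 9 higher, and the monocyte markers 8.74 (8.39 to 9.01) and 10.17 (9.97 to 10.36), with 2 of 7 lower. Their part in the lectin differences was not tested.

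Dermal DC were set against P3, 2 steady-state populations that both carry MHCII. Clec4d and Clec4e were lower in dermal DC, 2 of 7 genes against 1.8% of all genes. Clec4d read 6.82, 7.14 and 6.86 in dermal DC and 9.13, 8.94 and 8.83 in P3, without overlap. It was lower by a log2 difference of -2.03 ± 0.28, 4.09-fold, with an adjusted p of 4.2e-05. Clec4e read 9.93, 9.39 and 9.79 in dermal DC and 10.74, 10.73 and 10.81 in P3, and its log2 difference of -1.06 ± 0.28 had an adjusted p of 0.041. That call was lost without any 1 of the 6 arrays (adjusted p 0.052 to 0.21).

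In the same comparison 6 of 18 outputs were lower in dermal DC and 0 higher (median -0.69), among them Il10 at -2.42 and Ccl3 at -1.65. Macrophage markers averaged 8.11 in dermal DC and 9.90 in P3, with 6 of 9 lower, and DC markers 8.51 and 7.04, with 4 of 8 higher. The part of these markers in the lectin differences was not tested. Clec7a read 0.62 higher in dermal DC (adjusted p = 0.37).

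Among the macrophages, Clec7a was the 1 gene of the 7 that differed between MHCII+ P5 and MHCII- P4 cells, where 0.492% of all genes passed. It read 7.13, 8.42 and 7.46 in P5 and 5.84, 6.82 and 6.35 in P4, with each P5 array above each P4 array. The difference was 1.33 ± 0.27 on the log2 scale, 2.52-fold, with an adjusted p of 0.0084. The call was lost without the first P4 array (0.12), without the second P5 array (0.14) and in a fit of the 2 groups alone (0.64). The DC markers Itgax (log2 difference 1.90), Ccr7 (2.39) and Flt3 (2.06) were also higher in P5, among 5 of 8 DC markers higher and 0 lower, and their part in the Clec7a difference was not tested.

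Against steady-state dermal DC, P5 macrophages had more Clec4d and less Clec7a, 2 of 7 genes against 6.52% of all genes. Clec4d read 8.66, 8.91 and 7.97 in P5 and 6.82, 7.14 and 6.86 in dermal DC, without overlap, a log2 difference of 1.58 ± 0.28 with an adjusted p of 0.00027. Clec7a read 7.13, 8.42 and 7.46 in P5 and 9.09, 9.20 and 9.01 in dermal DC, also without overlap, a log2 difference of -1.43 ± 0.27 with an adjusted p of 0.00053. In a fit of these 2 groups alone the Clec7a call was lost (0.08). Clec4n differed by 0.75 (adjusted p = 0.46), and without the low P5 replicate 3 by 1.44 (0.032). The macrophage markers averaged 10.62 (10.32 to 10.90) in P5 and 8.11 (7.88 to 8.29) in dermal DC, with 8 of 9 higher, and the DC markers 6.95 (6.84 to 7.02) and 8.51 (8.43 to 8.63), with 6 of 8 lower. Of the outputs 6 of 18 were higher in P5 and 0 lower (median 0.24). The part of these markers in the lectin differences was not tested.

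The DNFB effect was taken separately in 4 populations sampled in both states. Clec4n was the gene that moved. In dermal DC it read 9.82, 9.44 and 10.01 after DNFB and 5.96, 7.26 and 6.44 at steady state. Every DNFB array lay above every steady-state array, and 21.7% of all genes did not overlap there in either direction. The Clec4n difference was 3.20 ± 0.44 on the log2 scale, 9.22-fold, with a 95% interval of 2.31 to 4.10 and an adjusted p of 1.5e-05. It was the 1 gene of the 7 called, against 4.16% of all genes.

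In P1 monocytes Clec4n read 8.76 and 8.73 after DNFB and 7.24, 6.90 and 5.68 at steady state. The groups did not overlap, which held for 4 of the 7 genes and for 22.9% of all genes. The log2 difference of Clec4n was 2.14 ± 0.49, 4.42-fold, with an adjusted p of 0.034, the 1 call among the 7 against 0.637% of all genes. It rested on few arrays: without either DNFB array (adjusted p 0.27 and 0.16), without steady-state replicate 3 (0.15) or in a fit of the 2 groups alone (0.47) it was lost. In P2 cells Clec4n read 9.21, 9.70 and 9.94 after DNFB and 8.74, 7.86 and 7.45 at steady state, again without overlap. That difference, 1.60 ± 0.44 on the log2 scale, had an adjusted p of 0.051 and was not called. In P2, 0 of the 7 genes passed, against 2.02% of all genes, and 2 of the 7 did not overlap, against 14.2% of all genes. The Clec4n call lay at the threshold, since 8 of 16 other settings or arrays left out gave an adjusted p under 0.05, down to 0.015.

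The partners Clec4d and Clec4e were not called in any of the 4 populations. Clec4d read 10.13 and 10.34 in DNFB P1 and 9.54, 8.85 and 9.14 in steady-state P1, without overlap (log2 difference 1.05 ± 0.31, adjusted p = 0.13). In P2 it read 9.11, 9.73 and 10.20 after DNFB and 8.58, 9.05 and 8.87 at steady state (0.85 ± 0.28, adjusted p = 0.13, and 1.13 with 0.033 without the first DNFB array). In dermal DC the Clec4d difference was -0.05 (adjusted p = 0.98). Clec4e read 8.80, 8.65 and 9.13 in DNFB dermal DC and 9.93, 9.39 and 9.79 in steady-state dermal DC, without overlap and in the opposite direction to Clec4n, at -0.84 ± 0.28 with an adjusted p of 0.09. Clec7a differed by -0.18 in P1, -0.05 in P2, -0.10 in dermal DC and 0.13 in node DC, with adjusted p from 0.91 to 1.

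In node DC, 0 of the 7 genes passed after DNFB, against 1.34% of all genes. Clec4n read 4.02, 3.96 and 4.56 after DNFB and 3.79, 4.10 and 3.77 at steady state, close to the low mark in both. Clec4a1 read 4.94, 6.61 and 6.84 after DNFB and 5.84, 4.13 and 4.33 at steady state, with overlap (log2 difference 1.36 ± 0.36, adjusted p = 0.057). Without the first steady-state array its difference was 1.89 (0.0025), and without the first DNFB array 1.95 (0.0011).

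**Figure D2:**
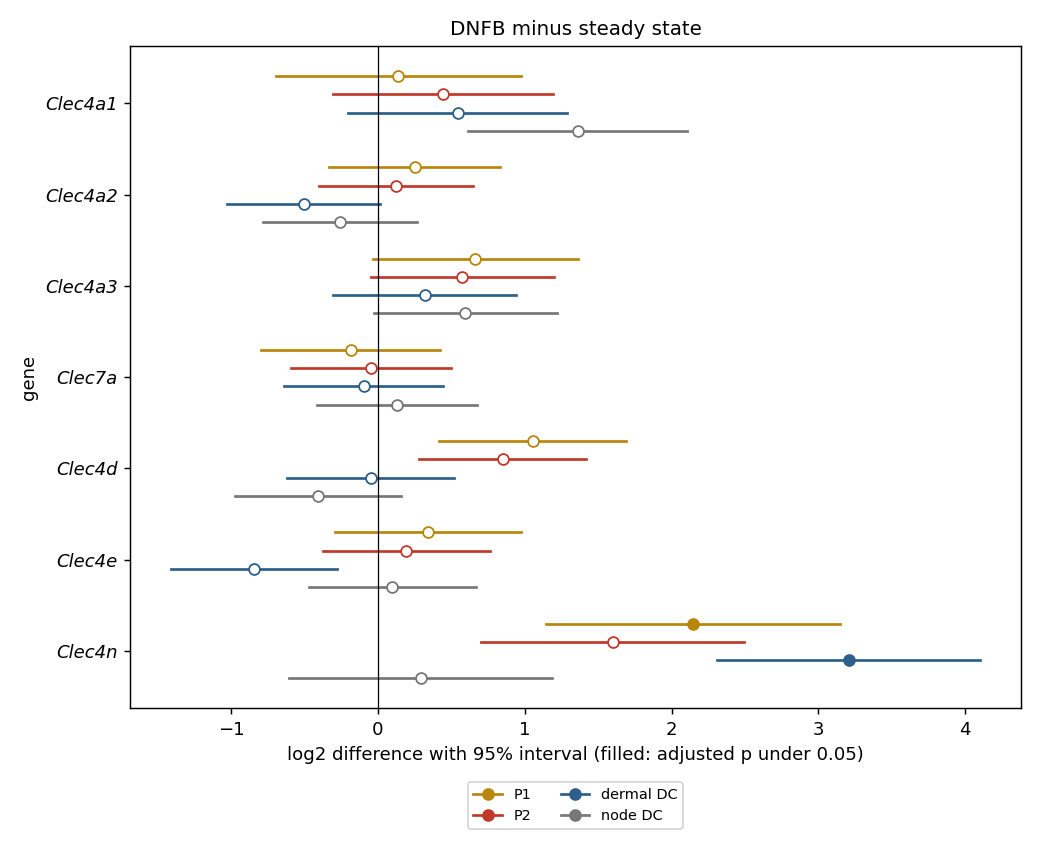
Log2 difference between DNFB and steady state (horizontal axis) for each gene (vertical axis) in P1, P2, dermal DC and node DC, with 95% intervals. Filled points had an adjusted p under 0.05. The filled points are both Clec4n, at 3.20 in dermal DC and 2.14 in P1.

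The DNFB effects were compared directly. For Clec4n the effect was smaller in node DC than in dermal DC (difference of log2 effects -2.91 ± 0.62, 95% interval -4.18 to -1.65, adjusted p = 0.011), the 1 call among the 7 against 1.31% of all genes. The difference held under 22 other settings and arrays left out, with adjusted p from 0.00021 to 0.042. Between dermal DC and P2 cells, the Clec4n effects differed by 1.60 with an adjusted p of 0.60, and 0 of 7 genes passed against 0.251% of all genes. After DNFB, Clec4n in dermal DC and P2 differed by 0.14, with an interval of -0.75 to 1.04, while Clec4d and Clec4e were lower in dermal DC than in P2 by log2 differences of -2.79 (6.93-fold, adjusted p = 5.7e-08) and -2.19 (4.56-fold, adjusted p = 3.8e-06). These were 2 of 7 genes, against 3.38% of all genes. Markers moved with that comparison: the monocyte list averaged 6.59 (6.39 to 6.76) in dermal DC and 9.49 (9.25 to 9.64) in P2, with 4 of 7 lower, and the macrophage list 6.87 (6.60 to 7.06) and 9.27 (8.75 to 9.78), with 8 of 9 lower. The fibroblast list averaged 5.37 (5.13 to 5.69) in dermal DC and 7.17 (6.85 to 7.41) in P2, with 5 of 12 lower, and the DC list 9.24 (9.08 to 9.35) and 7.34 (6.80 to 7.76), with 7 of 8 higher. Their part in the lectin differences was not tested.

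Pathway genes moved in both directions beside Clec4n. In dermal DC after DNFB, where 4.16% of all genes were called, the adaptors and kinases had 3 of 14 higher and 1 lower: Fyn by 1.73, Vav1 by 0.91 and Plcg2 by 0.72, and the adaptor Blnk at -2.01. Of the CARD9 branch, 1 of 13 was higher (Prkcd, the kinase that acts on Card9, by 0.47). Of the outputs 3 of 18 were lower and 0 higher, namely Il6 (-1.99), Cxcl1 (-1.56) and the transcription factor Egr2 (-1.26). Vav1, an exchange factor downstream of Syk, was also higher in P1 (1.27) and P2 (0.94) after DNFB. Those lists had 1 of 14 adaptor and kinase genes higher in P1, and 2 higher and 1 lower in P2, while 0 of 18 outputs passed in P1 and 1 was lower in P2.

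Markers moved with the DNFB comparison in dermal DC. The monocyte markers averaged 6.59 (6.39 to 6.76) after DNFB and 5.89 (5.66 to 6.03) at steady state, with 2 of 7 higher (Plac8 by 4.78 and Vcan by 2.22) and 1 lower. The macrophage markers averaged 6.87 (6.60 to 7.06) after DNFB and 8.11 (7.88 to 8.29) at steady state, with 6 lower. Fcgr1, which encodes the CD64 used to gate these cells out, read 7.98 after DNFB and 5.94 at steady state. It was also higher after DNFB in P1 (by 2.26) and P2 (by 1.95). Of the mast cell and basophil markers 1 of 10 was higher, with a median of 0.003, and of the T and NK cell markers 2 of 10. Kit, a mast cell marker, was higher by 3.40 and the T cell marker Cd3d by 1.94. The DC markers had 3 of 8 higher and 0 lower. The keratinocyte and fibroblast markers each had 2 of 12 lower and 0 higher. In P1 the neutrophil markers averaged 4.94 (4.64 to 5.24) after DNFB and 4.51 at steady state, and in P2 5.10 (4.79 to 5.32) after DNFB and 4.33 (4.17 to 4.45) at steady state, with a median difference of 0.14 in each. The 1 of 12 called in each population was S100a9, higher by 2.92 in P1 and by 4.32 in P2. The part of these markers in the Clec4n differences was not tested.

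Node DC were compared with dermal DC, and both are labelled CD11b+. Their marker RNA differed: at steady state Itgam read 4.62 in node DC and 9.52 in dermal DC, and Ccr2 4.37 and 10.32. After DNFB, Itgam read 4.74 and 10.00, and Ccr2 4.23 and 10.12. A change within 1 cell type and a different mix of cells cannot be told apart. All 7 genes were lower in the node in both states. At steady state 10.1% of all genes were called lower and 10.1% higher. The median log2 difference was -4.93 for the 7 genes and 0.05 for all genes. After DNFB 9.04% of all genes were called lower and 8.44% higher, and the median was -4.78 for the 7 genes. These 2 comparisons use different arrays.

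The inhibitory receptor Clec4a2 read 4.17, 4.42 and 4.55 in steady-state node DC and 9.35, 9.69 and 9.18 in steady-state dermal DC, a log2 difference of -5.03 ± 0.25 (32.6-fold, adjusted p = 2.8e-15). Its relative Clec4a1 was 56.0-fold lower, at 5.84, 4.13 and 4.33 in node DC and 10.67, 10.73 and 10.33 in dermal DC. Clec4a3 was 30.4-fold lower. None of these groups overlapped. The lowest node readings, 4.13 for Clec4a1, 4.17 for Clec4a2 and 4.29 for Clec4a3, lay close to the low mark. The folds of these genes therefore have no exact size. Clec7a was 14.6-fold lower (-3.86 ± 0.27, adjusted p = 2.3e-12). Clec4e read 3.78, 3.82 and 4.13 in node DC and 9.93, 9.39 and 9.79 in dermal DC (log2 difference -5.79, adjusted p = 6.7e-16). Clec4d (-2.95) and Clec4n (-2.67) were lower too. The node means of Clec4e, Clec4d and Clec4n lay under the low mark, so no fold is given for them.

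After DNFB the gap between node and dermal DC was wider for Clec4n, as the difference of effects above gives. Clec4n read 4.02, 3.96 and 4.56 in DNFB node DC and 9.82, 9.44 and 10.01 in DNFB dermal DC, a log2 difference of -5.58 ± 0.44 (adjusted p = 4.1e-11). Clec4a1 was 31.8-fold, Clec4a3 25.1-fold and Clec7a 12.4-fold lower. Clec4a2 had a log2 difference of -4.78, and its node mean of 4.12 lay close to the low mark, so no fold is given for it. Clec4d (-3.31 on the log2 scale) and Clec4e (-4.85) were lower against node means under the low mark, so no fold is given for them. For these 6 genes the DNFB effects in node and dermal DC were not called different, with adjusted p of 0.36 and above.

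Genes on the path below these receptors moved in both directions in steady-state node DC. Of the adaptors and kinases, 8 of 14 were lower and 2 higher, with Syk at -1.49, Fcer1g at -0.68 and the adaptor Lat2 at -3.57. Of the CARD9 branch 6 of 13 were higher and 3 lower, with the NF-kB subunits Relb (2.33) and Nfkb2 (1.49) higher and Malt1 (-1.18) lower. The outputs were lower as a group, 14 of 18 with 0 higher and a median of -3.40, among them the inflammasome sensor Nlrp3 at -5.15, Cxcl2 at -6.14 and Il1b at -5.06. Of 19 other C-type lectins, 9 were lower and 2 higher, with Mgl2 at -8.13, the mannose receptor Mrc1 at -6.63 and Cd209a at -6.50. Of the 10 effectors of inhibitory motifs and other phosphatases, 2 were higher and 5 lower.

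Markers of other cells moved with the same comparison. At steady state the keratinocyte markers averaged 4.74 (4.59 to 4.89) in node DC and 6.73 (6.47 to 7.13) in dermal DC, with 9 lower. The macrophage markers averaged 5.26 and 8.11, with 7 of 9 lower, and the monocyte markers 4.38 and 5.89, with 2 lower. Of the DC markers 3 of 8 were higher and 4 lower, with averages of 8.30 in node DC and 8.51 in dermal DC. The part of these markers in the lectin differences was not tested.

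Node CD64+ cells were compared with 2 populations, both after DNFB. Against node DC from the same tissue, 6 of 7 genes were higher, where 3.82% of all genes were. Clec4a1 read 10.26, 10.57 and 11.19 in node CD64+ cells and 4.94, 6.61 and 6.84 in node DC, a log2 difference of 4.54 ± 0.36 (23.3-fold). Clec4n read 8.24, 8.38 and 9.51 in node CD64+ cells and 4.02, 3.96 and 4.56 in node DC (log2 difference 4.53, adjusted p = 9.2e-09). Clec4a3 was 26.6-fold and Clec7a 3.84-fold higher and Clec4a2 3.53 higher on the log2 scale, where the node DC levels of Clec4n and Clec4a2 lay close to the low mark, and none of these groups overlapped. Of the list of adaptors and kinases, 7 of 14 were higher and 0 lower (Vav1 by 1.34 and Fcer1g by 0.50). Of the effectors of inhibitory motifs and other phosphatases 4 of 10 were higher, and of the outputs 6 of 18, with 0 lower in each. In the CARD9 branch 0 of 13 genes passed.

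Clec4e was higher by 1.29 on the log2 scale in node CD64+ cells than in node DC, whose mean lay under the low mark, at 4.91, 4.89 and 6.11 in node CD64+ cells and 3.69, 4.07 and 4.28 in node DC (adjusted p = 0.0026). Without node CD64+ replicate 3 the difference was 0.89 and the call was lost (0.071). Clec4d differed by 0.52 and was not called (0.41), at 3.83, 4.08 and 4.38 in node CD64+ cells and 3.51, 3.40 and 3.84 in node DC. Its readings were near the low mark in both populations. The macrophage markers averaged 9.05 (8.67 to 9.70) in node CD64+ cells and 5.04 (4.84 to 5.42) in node DC, with 8 of 9 higher, and the monocyte markers 6.46 and 4.36, with 4 higher, and their part in the lectin differences was not tested.

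Against dermal P2 cells, which are also CD64+ and MHCII+, 4 of the 7 genes were lower in node CD64+ cells, where 5.37% of all genes were, and Clec4d and Clec4e had by far the widest differences. Clec4e read 4.91, 4.89 and 6.11 in node CD64+ cells and 10.80, 10.99 and 11.35 in DNFB P2, a log2 difference of -5.75 ± 0.28 (53.7-fold, adjusted p = 2.9e-15). Clec4d read 3.83, 4.08 and 4.38 in node CD64+ cells and 9.11, 9.73 and 10.20 in DNFB P2, a difference of -5.58 ± 0.28 (adjusted p = 6e-15) with the node level close to the low mark. Both stayed called with each array left out.

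Clec4a2 was lower by -1.96 (3.90-fold, adjusted p = 1.1e-06) and Clec7a by -1.36 (2.56-fold, adjusted p = 0.00041) on the log2 scale. The remaining genes were not called: Clec4n differed by -0.91 (adjusted p = 0.22), Clec4a1 by -0.71 (0.26) and Clec4a3 by -0.40 (0.53). The Clec4n array readings overlapped, at 8.24, 8.38 and 9.51 in node CD64+ cells and 9.21, 9.70 and 9.94 in DNFB P2. Down-weighting of noisy arrays, an alternative, called Clec4n lower (-1.21, adjusted p = 0.015).

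**Figure D3:**
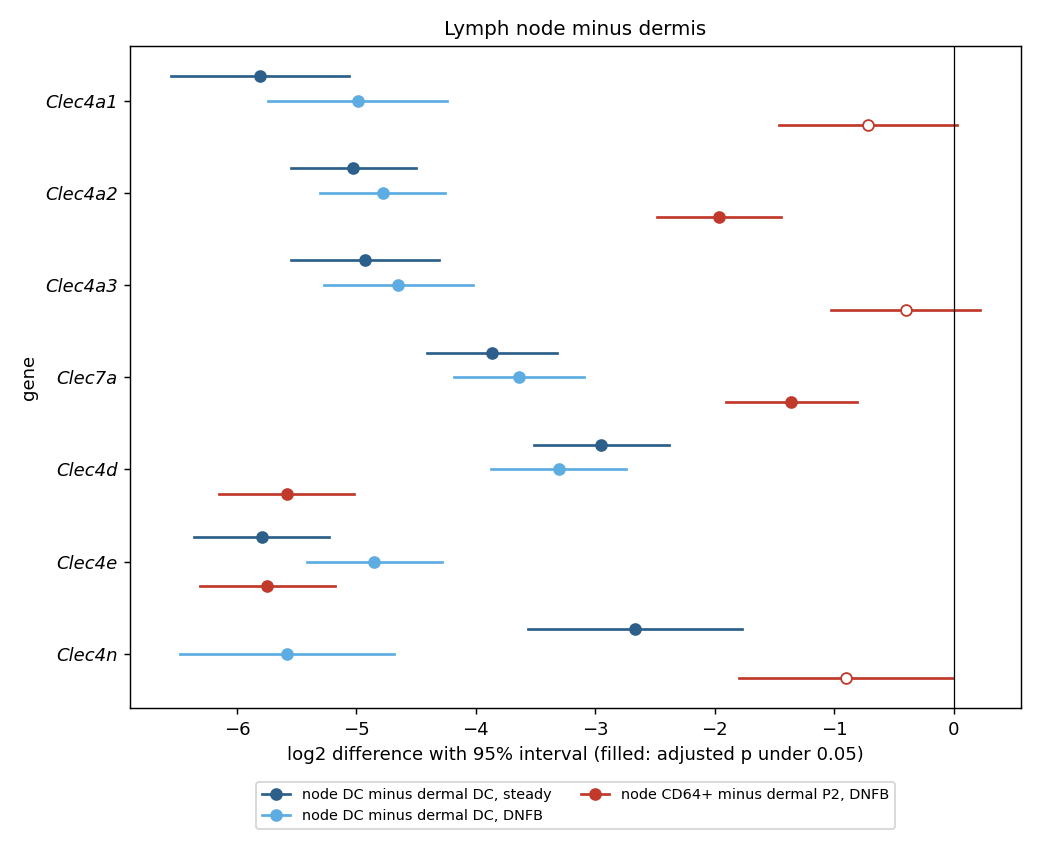
Log2 difference between lymph node and dermal populations (horizontal axis) for each gene (vertical axis), with 95% intervals, for node DC minus dermal DC at steady state and after DNFB and for node CD64+ cells minus DNFB P2 cells. Filled points had an adjusted p under 0.05. All node DC points lie below 0, and in node CD64+ cells Clec4e (-5.75) and Clec4d (-5.58) lie far below the other 5 genes.

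The outputs of receptor engagement were also lower in node CD64+ cells than in P2, 12 of 18 with 1 higher and a median of -1.58, with Il10 at -5.66, Cxcl2 at -4.81 and Nlrp3 at -3.03. Over all genes, 5.37% were called lower and 7.26% higher in this comparison. The CARD9 branch had 4 of 13 higher and 3 lower, with Relb 2.14 and Nfkb2 1.28 higher and Malt1 at -1.44. Monocyte markers moved with this comparison and averaged 6.46 (6.22 to 6.70) in node CD64+ cells and 9.49 (9.25 to 9.64) in P2, with 6 of 7 lower. Fibroblast markers averaged 4.94 (4.76 to 5.12) and 7.17 (6.85 to 7.41), with 6 of 12 lower, and keratinocyte markers 4.55 (4.54 to 4.56) and 6.56 (5.90 to 7.57), with 7 of 12 lower. DC markers averaged 8.75 (8.32 to 8.97) in node CD64+ cells and 7.34 (6.80 to 7.76) in P2, with 6 of 8 higher and 1 lower. Macrophage markers were at 9.05 and 9.27, with 1 of 9 higher and 3 lower. The part of these markers in the lectin differences was not tested.

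The 7 genes were then set against each other across populations. Over the 13 population means, Pearson's r of the 21 pairs lay between 0.52 and 0.99 with a median of 0.78. Both node DC populations carried much of this: over the 11 other means, a set chosen after the values were seen, the median was 0.13 and 5 pairs were negative. Clec4d and Clec4e, the neighbours whose promoter windows are printed above, kept an r of 0.90 over the 11 means (0.95 over 13). Clec4a2 with Clec4e was at 0.80 and Clec4a1 with Clec4a3 at 0.78 over 11 means. Clec4a2 with Clec4a3 was at 0.93 over 13 means and -0.24 over 11, and Clec4n with Clec7a at 0.52 and -0.19. Points share arrays and the normalisation, so these values describe the populations only.

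**Figure D4:**
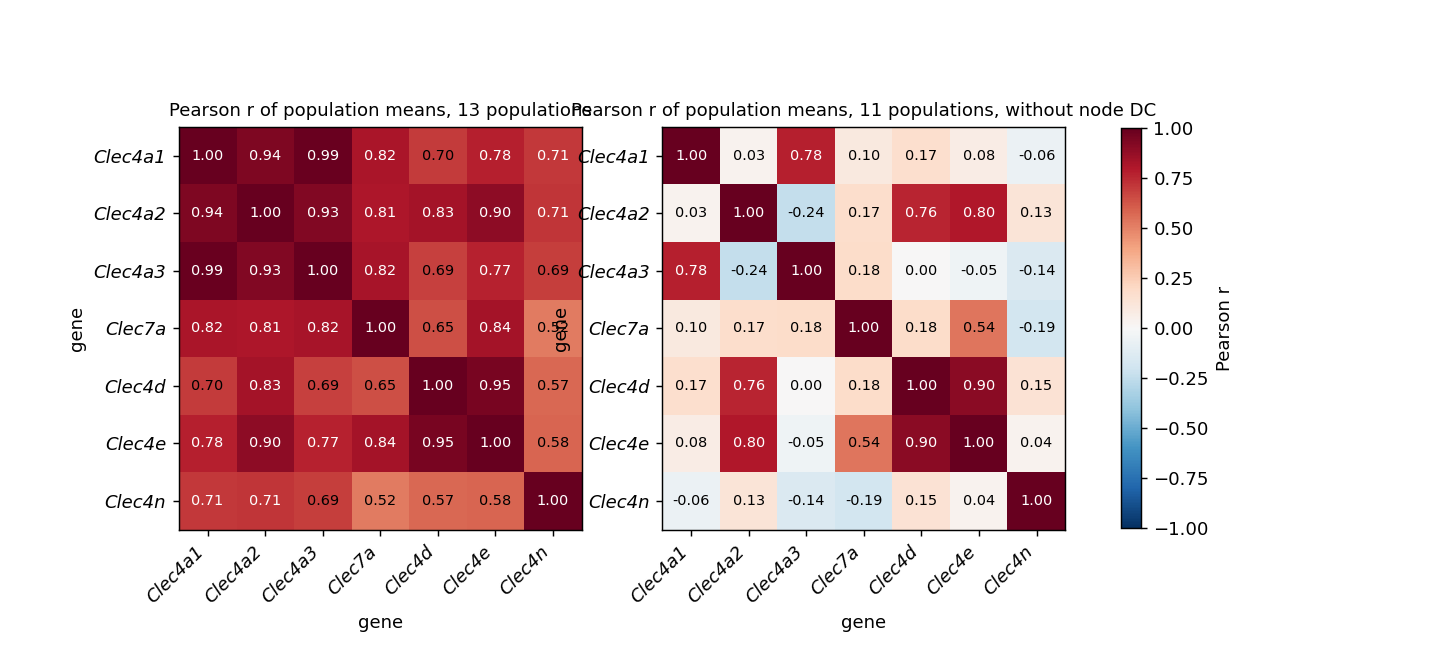
Pearson's r between the population means of each pair of genes, over 13 populations on the left and over the 11 populations other than node DC on the right. Over 13 populations all 21 pairs are positive, and over 11 the pair of Clec4d and Clec4e stays at 0.90 while 5 pairs are negative.

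Among 2609 other genes whose population means spanned at least 2 log2 units, the 7 members left out, the genes most like each member over the 13 means were named, 3 per member by rank. These r values include both node DC populations, and of 42 values recomputed with Spearman's rho or over the 38 arrays, 14 differed by over 0.1. Clec4a1 and Clec4a3 were themselves at 0.99 over the 13 means, and Tgfbi, Cyth4 and Ms4a6c were the 3 other genes most like both Clec4a1 (r from 0.98 to 0.99) and Clec4a3 (0.98 to 0.99). For Clec4a2 they were Fkbp2 (0.99), Atp2a2 (0.98) and the inhibitory Fc receptor Fcgr2b (0.98). Clec4d was most like Tmem189, Rybp and the lipoprotein receptor Tlr2, each at 0.96. Clec4e was most like Sestd1 (0.98), the kinase Sgk1 (0.98) and Trim25 (0.97). Clec7a was most like Plbd1 (0.97), Cd300a (0.95) and the chemokine receptor Ccr2 (0.95). Clec4n had no match as close: Dock4 reached 0.88, and Slc16a6 and Cd69 0.86.

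The Clec4 genes Clec4b1, Clec4a4 and Clec4b2 were also on the array. Clec4b1 was lower after DNFB where Clec4n was not: it averaged 8.53 ± 0.38 in DNFB dermal DC and 9.84 ± 0.26 in steady-state dermal DC, and 7.71 ± 0.43 in DNFB P2 and 9.36 ± 0.23 in steady-state P2. Both differences were called, at -1.31 and -1.65 on the log2 scale. Clec4a4 (Dcir2), another inhibitory receptor, was higher in DNFB dermal DC by 1.47, at 4.49 in DNFB dermal DC and 3.02, under the low mark, in steady-state dermal DC. Clec4b2 lay under the low mark in all 13 populations.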

How the data were processed

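RNA of 38 sorted samples was measured on Affymetrix Mouse Gene 1.0 ST arrays after amplification. The deposited values are log2 intensities that the authors made by RMA (affy), per the submitters' processing notes. Versions are not given in the sources used here. RMA draws all arrays to a common distribution, so levels are relative to the other genes. Of 34760 probe sets, 21640 had 1 gene symbol, 1321 several and 11799 none in the platform annotation, and 21553 matched RefSeq by gene ID. For each symbol the probe set with the highest mean over all arrays was kept, which left 19937 genes.

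Differences were tested with limma 3.58.1 in R 4.3.3 (lmFit and eBayes on all 13 groups, 25 residual degrees of freedom), with p-values adjusted by Benjamini-Hochberg over all genes. There were 15 differences between populations and 2 differences of DNFB effects. The procedure was tested on simulated data, where 93 of 100 genes changed 4-fold and 68 of 100 changed 2-fold were found for the DNFB comparison in dermal DC. Promoter windows were read with Python 3.11.15, and figures were drawn with matplotlib 3.10.9 and pandas 2.3.3.

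The 7 genes and the 15 lists were chosen with earlier results of these data known. In each list the text names a selection of genes, which are not always those with the lowest adjusted p. Genes like a member are named by rank of r. The chips were hybridised in 3 batches, per the series' design text, but which array lay in which batch is not given in the sources used here, so batch was not a term in the fit. Alternatives covered the replicate block, normalisation, low-signal and probe-set rules, the moderated fit, array weights and each array left out.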

Additional observations from a re-analysis of the deposited data

Results flagged for a closer look

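One result differed between tissues under the same contrast. The DNFB effect on Clec4n, the mannan receptor Dectin-2, was smaller in node DC than in dermal DC, with a difference of log2 effects of -2.91 ± 0.62 (adjusted p = 0.011). In node DC the 3 arrays after DNFB and the 3 at steady state overlapped near the low mark (difference 0.29), while in dermal DC every DNFB array was above every steady-state array (difference 3.20).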

How the results depend on the processing

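Of 1190 values of the 7 genes under other settings, 1170 kept their side of the threshold, 9 lost their call, 11 gained one and 0 reversed. With 1 probe set for each of the 7 genes, the mean of all probe sets could not change their differences, but it could change their adjusted p. Every call exceeded 2-fold, so a 2-fold minimum could remove none. With each array left out in turn the counts were 771 of 791, 13, 7 and 0. A reversal was counted only where at least 1 of the 2 fits called the value. Uncalled values could change sign. For example, Clec7a in P1 against blood was 0.10 and ranged from -0.12 to 0.34 over the other settings and arrays left out. The number of the 7 genes called was 1 in place of 2 for dermal DC against P3 with the replicate block, with array medians centred and with only the compared groups fitted. For the DNFB effect in P1 it was 0 in place of 1 with the replicate block and with only the compared groups fitted. Fitting only the compared groups also gave 0 in place of 1 for P5 against P4 and 1 in place of 2 for P5 against dermal DC. For the DNFB effect in P2 it was 1 in place of 0 with the source number as a random block, quantile normalisation, low genes left out, the mean of all probe sets, a trended robust fit, or array weights. For node DC it was 1 in place of 0 with quantile normalisation or low genes left out, and array weights gave 2 in place of 1 in dermal DC.

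With 1 array left out, the count was 3 to 5 for P1 against blood, 0 to 1 for the DNFB effect in P1, 0 to 2 in P2, 1 to 1 in dermal DC and 0 to 1 in node DC. It was 1 to 1 for dermal DC against P3, 0 to 1 for P5 against P4, 2 to 3 for P5 against dermal DC, 2 to 2 for dermal DC against P2 after DNFB, and 0 to 0 for P2 against P1 and P3 against P2. It was 7 to 7 for node DC against dermal DC in both states, 5 to 6 for node CD64+ cells against node DC and 4 to 4 against P2. In P1 after DNFB, leaving out an array can leave 1 DNFB array, which is then assumed to vary like the other groups. The cause of these changes was not tested, except that fitting only the compared groups leaves fewer arrays to estimate the spread.

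No consistent pairing by replicate number was seen. Same-numbered arrays correlated at -0.26 to 0.35 in their deviations, and in 0 of 15 comparisons were all pairs over 0.1. These correlations do not exclude pools shared between populations. The replicate block left 117 of 119 values of the 7 genes on their side of the threshold. The sample names also carry a source number shared across populations, whose meaning the labels do not give. It was 1, 2 and 4 for steady-state blood and dermis, and 1, 2 and 3 for steady-state node DC. After DNFB it was 3, 4 and 5 (3 and 4 in P1), so DNFB and source number are partly confounded. Same-numbered replicates therefore did not share a source number in the DNFB comparisons, so the correlations there could not show a shared source. As a random block it had a consensus correlation of 0.00329, which does not remove that confounding. Over all genes, fitting only the compared groups gave over 1.5 times fewer calls in 8 of 15 comparisons, a 2-fold minimum fewer in 9, and array weights more in 5. The median r of the gene pairs was 0.78, and 0.13 without node DC, an alternative chosen after seeing the data. Of 42 recomputed values of likeness to a member, by Spearman's rho or over the 38 arrays, 14 moved by over 0.1. Levels near 4.02 limit the size of differences in node cells.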
